A study of Homo sapiens with 4 samples.

Results

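The genes described here are 10 members of the heat shock protein 70 (HSP70) system: the HSP70 genes HSPA6, HSPA1A, HSPA1B, HSPA2 and HSPA8, the co-chaperone genes DNAJB1, HSPH1 and BAG3, the small heat shock protein gene HSPB1, and HSF1, the gene of the transcription factor that drives the heat shock response. They were found as every probe set whose platform annotation gives exactly 1 of these symbols. This gave 26 probe sets of 9 genes, out of 44988 probe sets with 1 symbol for 18132 genes. HSPA1A had no probe set of its own and was read only on 4 probe sets that it shares with HSPA1B. A further probe set is shared by HSPA6 and HSPA7, so 5 shared probe sets are given beside the others. The genes were picked with the comparison of the vectors on these same arrays already known. Their differences between vectors are therefore a description, and no p-value is given for any of them. The fit over all genes included them, and how many passed its threshold is given only beside the share of all genes.

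U87MG, an established human glioblastoma line, was the source of RNA, which was hybridised to 4 PrimeView arrays, which read each transcript with sets of short probes. All cells were kept at 0.2% oxygen, the control cells included. They received either the PCMV control vector (2 biological replicates) or the NeuroD2 expression vector (2 biological replicates), and RNA was taken 48 hours later. The comparison asks which transcripts respond to NeuroD2, a neurogenic bHLH transcription factor, when these cells lack oxygen. The labels do not give the share of cells that took up a vector, and no untransfected cells were analysed here.

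HSP70 proteins bind short hydrophobic stretches of unfolded proteins and release them in a cycle driven by ATP. J-domain proteins such as DNAJB1 bring substrates and stimulate ATP hydrolysis, and nucleotide exchange factors such as HSPH1 and BAG3 reset the cycle. Some family members are made at all times, HSPA8 above all, while HSPA1A, HSPA1B and HSPA6 are transcribed on heat or protein damage. HSF1 is held inactive in unstressed cells, becomes a trimer under stress, and binds heat shock elements, which are repeated GAA units in alternating orientation. HSPA6 is the member with the strictest dependence on stress for its expression.

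The sequences before the start sites are shown because the heat shock elements through which HSF1 acts lie there, and because the near-identical pair HSPA1A and HSPA1B shares much of its upstream sequence. The RefSeq promoter table of GRCh38.p14 held 9 of the 10 genes, with 11 start sites in all. Each sequence below is the 250 bases before an annotated start, 5′ to 3′ on the gene's strand. Capitals mark matches to the heat shock element of 3 units (GAA, TTC and GAA, or on the other strand TTC, GAA and TTC, with any 2 bases between neighbours) and to the element of 2 units (GAA and TTC with any 2 bases between), which reads the same on both strands. An element of 3 units always contains 1 of 2 units, so their matches overlap.
HSPA6, chr1:161524290-161524539, plus strand: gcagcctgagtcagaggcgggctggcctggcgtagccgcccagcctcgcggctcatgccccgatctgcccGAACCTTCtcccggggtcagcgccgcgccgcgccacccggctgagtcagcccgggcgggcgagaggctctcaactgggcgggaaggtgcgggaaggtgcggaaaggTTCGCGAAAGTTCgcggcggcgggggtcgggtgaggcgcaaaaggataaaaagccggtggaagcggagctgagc
HSPA1A, chr6:31815293-31815542, plus strand: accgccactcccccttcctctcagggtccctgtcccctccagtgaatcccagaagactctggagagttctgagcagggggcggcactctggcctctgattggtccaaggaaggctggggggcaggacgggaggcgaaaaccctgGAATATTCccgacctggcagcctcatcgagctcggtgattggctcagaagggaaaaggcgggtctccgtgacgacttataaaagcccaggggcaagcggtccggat
HSPA1B, chr6:31827488-31827737, plus strand: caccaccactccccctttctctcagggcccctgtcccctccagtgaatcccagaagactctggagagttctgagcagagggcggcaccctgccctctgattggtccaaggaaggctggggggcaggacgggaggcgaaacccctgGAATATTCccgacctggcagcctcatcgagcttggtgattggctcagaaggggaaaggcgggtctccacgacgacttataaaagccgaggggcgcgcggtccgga
HSPA8, chr11:123062137-123062386, minus strand: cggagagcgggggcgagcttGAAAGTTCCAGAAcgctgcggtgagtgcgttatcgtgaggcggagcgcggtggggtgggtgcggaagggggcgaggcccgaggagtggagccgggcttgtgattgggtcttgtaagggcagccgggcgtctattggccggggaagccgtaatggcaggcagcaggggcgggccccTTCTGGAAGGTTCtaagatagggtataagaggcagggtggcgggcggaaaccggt
DNAJB1, chr19:14518398-14518647, minus strand: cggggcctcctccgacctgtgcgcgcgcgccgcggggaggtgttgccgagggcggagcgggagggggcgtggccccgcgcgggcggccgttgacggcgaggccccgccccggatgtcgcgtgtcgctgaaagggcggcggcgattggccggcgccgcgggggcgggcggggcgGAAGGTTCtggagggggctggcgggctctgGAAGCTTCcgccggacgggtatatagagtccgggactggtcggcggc

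HSPA6 and HSPA8 were the 2 genes of 9 with an element of 3 units, at 2 of the 11 start sites. That of HSPA6 lies 74 to 62 bases before the start, and HSPA8 has 1 at 55 to 43 bases and another at 230 to 218 bases. Among all 35116 start sites in the table, 0.441% had such an element in the same window. Elements of 2 units were found at 6 of the 11 start sites, those of HSPA6, HSPA8, HSPA1A, HSPA1B, HSPB1 and 1 of DNAJB1, against 5.78% of all start sites. In HSPA1A and HSPA1B the element is GAATATTC, at 106 to 99 and 105 to 98 bases. The upstream sequences of this pair were identical at 235 of 249 aligned bases, or 94.4%. Both also hold TATAAA, at 30 to 25 and 29 to 24 bases, where 10.7% of all start sites hold it anywhere in the window. Each has 2 CCAAT boxes on the reverse strand. On either strand, CCAAT boxes stood at 7 of the 11 start sites, against 32.0% of all start sites. These were start sites of DNAJB1, HSPA1A, HSPA1B, HSPA2 and HSPA8. DNAJB1 has 3 annotated starts, and only the one shown holds elements of 2 units, at 77 to 70 and 47 to 40 bases. No match to either element was found in the windows of HSPA2, HSPH1 and BAG3, which says only that these letters are not in these windows. Of the E-boxes CAGATG and CAGCTG, letters to which NeuroD factors can bind, HSPB1 alone held CAGATG and no window held CAGCTG, against 12.2% and 14.0% of all start sites, both strands searched.

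**Figure D1:**
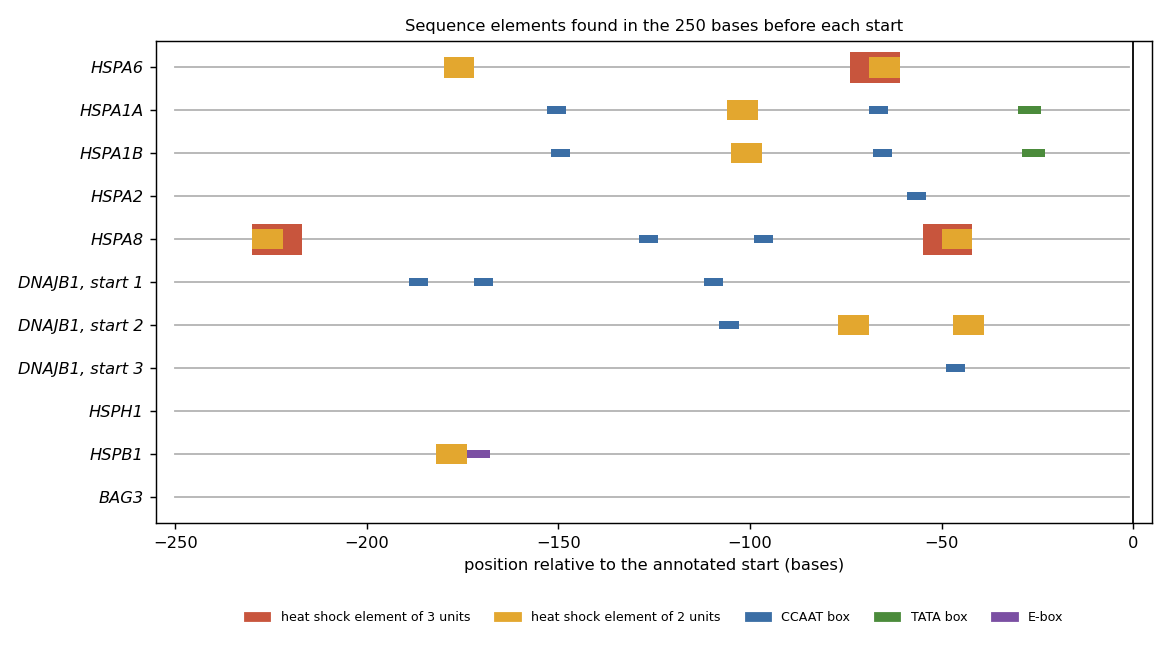
Positions of sequence elements in the 250 bases before 11 annotated starts of 9 genes, with distance to the start in bases on the horizontal axis. Boxes, which overlap where elements do, mark heat shock elements of 3 units (red) and 2 units (yellow), CCAAT boxes (blue), TATA boxes (green) and an E-box (purple), and the elements of 3 units lie in HSPA6 and HSPA8.

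Values are the authors' deposited log2 values of probe sets, so a difference of 1 is a doubling. The arrays had medians between 5.98 and 5.99 and a highest value of 14.29. NEUROD2, the check on the vector, differed by 2.19 ± 0.15 (moderated standard error, limma adjusted p = 0.0044). Of the markers of mesenchymal glioma lines, VIM read between 14.12 and 14.18, CD44 between 12.74 and 12.92 and S100A10 between 12.58 and 12.62. NES, in the same list, read between 6.37 and 6.90, and FN1 fell by 0.63 (limma adjusted p = 0.032). The endothelial markers PECAM1, VWF and CDH5 read between 4.03 and 5.77, and PTPRC of leukocytes between 2.95 and 3.53, although CD68 read between 10.07 and 10.21. Neuron markers summed to 25.46 and 25.47 log2 units over 4 genes on the control arrays and to 24.53 and 24.89 on the NeuroD2 arrays, and did not move one way. SNAP25 fell by 0.59 (limma adjusted p = 0.031), and SYT1 (-0.45), STMN2 (0.21) and RBFOX3 (0.08) did not pass. The poly-A spikes, which pass through labelling, were low on control replicate 1, with a mean of 6.95, where the remaining arrays had means of 7.96 to 8.03. The hybridisation spikes differed by 0.39 in favour of the NeuroD2 arrays, or by 0.22 if control replicate 1 is left out and 0.56 if control replicate 2 is, and the part of either in the results below was not tested.

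HSPA6, which encodes the stress-dependent HSP70B′ protein, was the member that differed most. Its probe set read 4.49 and 4.27 on the control arrays and 5.92 and 5.85 on the NeuroD2 arrays. Both NeuroD2 arrays lay well above both control arrays, and the gaps within a group, 0.23 and 0.07, were small beside the gap between groups. The means were 4.38 ± 0.16 and 5.89 ± 0.05 (SD, n = 2 each), a difference of 1.51 with a moderated standard error of 0.10, or 2.84-fold. Among the 18132 genes this was the 18th highest difference. Detection calls were not used here, so whether HSPA6 was above background in the control cells is not known. In bulk RNA, more cells with the transcript and more transcript per cell cannot be told apart.

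The probe set shared by HSPA6 and HSPA7, a close relative annotated as a pseudogene, read 5.61 and 5.32 on the control arrays and 6.45 and 6.74 on the NeuroD2 arrays. It differed in the same direction by 1.12 ± 0.14 (moderated standard error), or 2.18-fold, with no overlap between groups. The share of either gene in this signal cannot be told apart.

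HSPA1A and HSPA1B lie close together on chromosome 6 and encode the same protein, the major inducible HSP70. The single probe set annotated to HSPA1B alone read 10.61 and 10.79 on the control arrays and 10.88 and 10.84 on the NeuroD2 arrays. Its name ends in x_at, a kind that can match more than 1 gene. The NeuroD2 arrays were both above the controls, but the difference of 0.16 ± 0.09 (moderated standard error) was about the size of the 0.18 between the control arrays. The 3 brighter shared probe sets differed by 0.17, 0.30 and 0.23, again without overlap between groups. The fourth, which read 4.59 to 4.95 on all arrays, differed by 0.01 and overlapped. Over the 4 bright probe sets of this pair, each fold lay between 1.12 and 1.23, well under the 2.84-fold of HSPA6.

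HSPA2, an HSP70 best known from spermatogenesis, had the largest negative difference of the members. It read 6.04 and 6.36 on the control arrays and 6.04 and 5.66 on the NeuroD2 arrays. The groups nearly touched, since replicate 1 of each read 6.04, while arrays of the same group lay 0.32 and 0.37 apart. The difference was -0.35 ± 0.16 (moderated standard error) and ran from -0.54 to -0.16 when single arrays were left out.

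HSPA8, the constitutive cytosolic HSP70, was level between the vectors. Its brightest probe set read 14.07 on both control arrays and 14.05 and 14.07 on the NeuroD2 arrays, a difference of -0.0088 ± 0.076 (moderated standard error). This is near the highest value on the arrays, and whether the probes were saturated was not tested. Its 9 probe sets shared 1 gene but spanned values from 4.57 to 14.07. The 4 that read above 13 on every array differed by -0.0088 to 0.043, and the fifth at 10.15 to 10.39 differed by 0.11. The other 4 read between 4.57 and 5.65 and differed by -0.09 to 0.13. Of the 9, 6 had differences above 0 and 3 below, and 5 overlapped between groups, so no direction was common to the gene's probe sets.

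**Figure D2:**
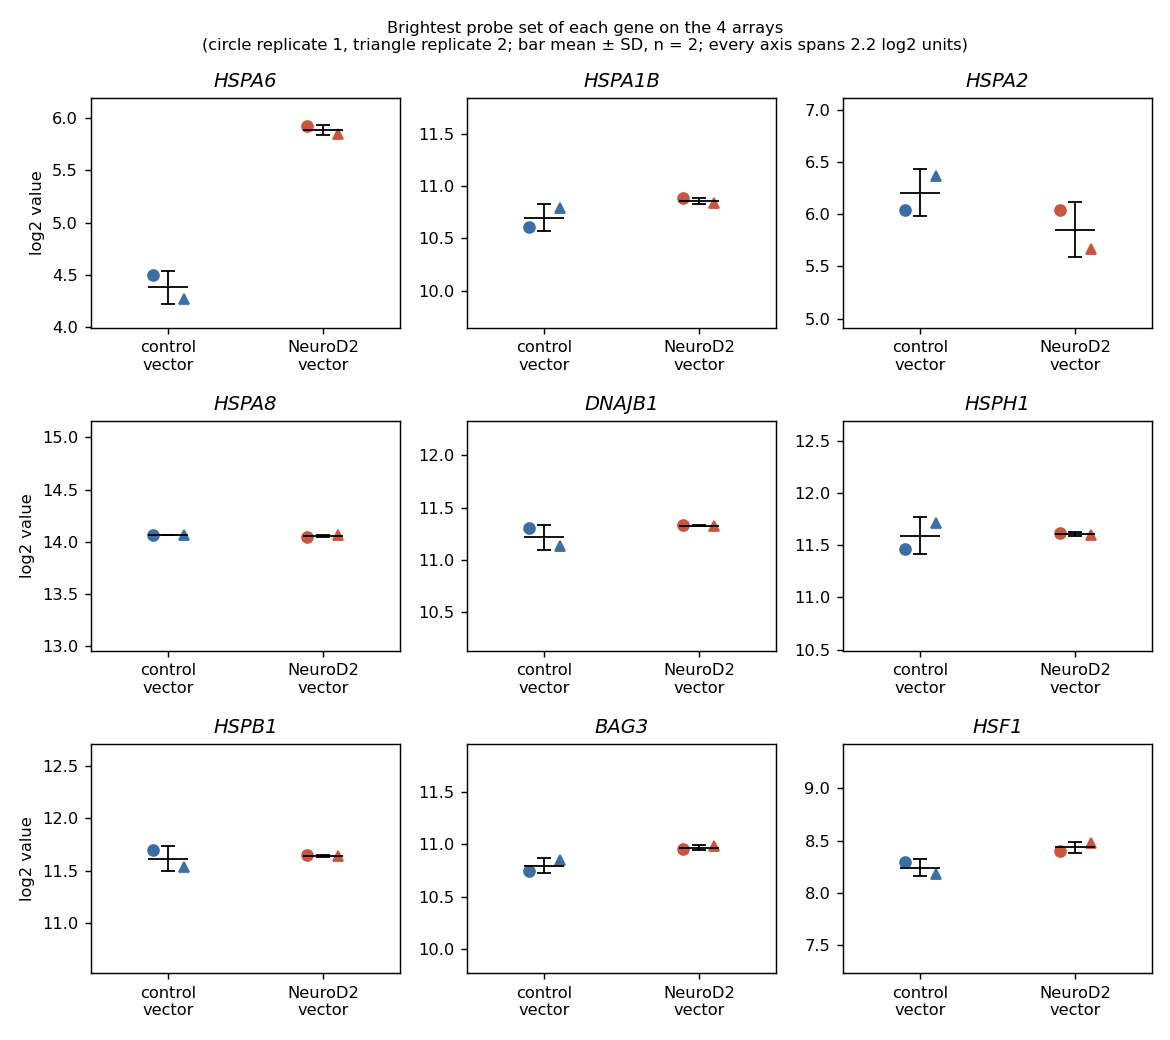
Log2 values of the brightest probe set of each of 9 genes on the 4 arrays (vertical axis, 2.2 log2 units in every panel), control vector in blue and NeuroD2 vector in red, circle for replicate 1 and triangle for replicate 2, with the mean and SD of 2 arrays. HSPA6 separates by 1.51 log2 units, HSPA2 lies lower by 0.35, and the other 7 genes differ by less than 0.20.

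DNAJB1 encodes the main stress-inducible J-domain partner of cytosolic HSP70. Its brightest probe set read 11.30 and 11.13 on the control arrays and 11.33 and 11.32 on the NeuroD2 arrays. The second read 11.02 and 11.01 against 11.32 and 11.26, and the third 10.44 and 10.31 against 10.54 and 10.47. On all 3 the NeuroD2 arrays lay above both controls, by 0.11 ± 0.09, 0.28 ± 0.08 and 0.14 ± 0.09 (moderated standard errors). The second probe set thus gave a difference over 2 times that of the brightest, whose control arrays lay 0.17 apart. Leaving out control replicate 1 gave 0.20 for the brightest, and leaving out control replicate 2 gave 0.03.

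HSPH1, the HSP110 protein that acts as nucleotide exchange factor for HSP70, was read on 8 probe sets. The brightest read 11.47 and 11.72 on the control arrays and 11.62 and 11.60 on those with NeuroD2. The groups overlapped, and the control arrays held both the lowest and the highest value. Its difference was 0.02 ± 0.11 (moderated standard error). Across the 8 probe sets, differences ran from -0.046 to 0.14, 6 were higher and 2 lower, and 6 overlapped. The largest, 0.14 ± 0.08, came from a probe set that read 11.34 and 11.36 against 11.47 and 11.51.

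BAG3, which links HSP70 to autophagy and is itself induced by heat, read 10.74 and 10.85 on the control arrays and 10.95 and 10.99 on the NeuroD2 arrays. The NeuroD2 arrays were both higher, by 0.17 ± 0.08 (moderated standard error), and the nearest arrays of the groups lay 0.10 apart, as did the control arrays. HSPB1, the small heat shock protein HSP27, which holds unfolded proteins without using ATP, read 11.70 and 11.53 against 11.65 and 11.64. Both NeuroD2 values fell between the controls, and the difference was 0.03 ± 0.09. HSF1, the regulator of the response, read 8.30 and 8.18 on the control arrays and 8.40 and 8.47 on the NeuroD2 arrays. It was higher on both NeuroD2 arrays by 0.20 ± 0.09, or 1.15-fold, beside a gap of 0.11 between the controls. These values are of HSF1 transcript and do not bear on whether the protein was active.

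Read as a list, the 9 genes had a median difference of 0.11 on their brightest probe sets, against 0.00 over all genes, and a median absolute difference of 0.16 against 0.11. Over the 26 probe sets the median difference was 0.06, against 0.0058 over all probe sets with 1 symbol, and the median absolute difference was 0.099, below the 0.112 of all. Past an adjusted p of 0.05 in the limma fit over all genes was 1 of the 9, HSPA6, where 4.77% of all genes passed, 1.81% upward and 2.96% downward. Because the genes were picked with this contrast known, nothing is read from that count. Both NeuroD2 arrays lay above both controls for 5 of the 9 genes, as for 24.2% of all genes, and below for 2, as for 26.6%. Among the 26 probe sets these counts were 12 above, against 24.9% of all probe sets with 1 symbol, and 2 below, against 24.5%. Past an adjusted p of 0.05 was 1 of the 26, against 3.03% of those probe sets (1.32% upward, 1.7% downward). These probe sets are not independent, as 17 of them belong to HSPA8 and HSPH1.

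The lowest values of the member probe sets were not spread evenly over the arrays. These probe sets are not independent, as 17 of the 26 belong to HSPA8 and HSPH1. Control replicate 1 gave the lowest value on 11 of the 26 probe sets, where it was lowest on 25.2% of all probe sets with 1 symbol. Control replicate 2 was lowest on 9 (30% of all). NeuroD2 replicate 1 was lowest on 5 (23.1% of all) and NeuroD2 replicate 2 on 1 (21.7% of all). The highest value came from control replicate 1 on 1 probe set and from control replicate 2 on 9. NeuroD2 replicate 1 was highest on 9 and NeuroD2 replicate 2 on 7. Shares of highest values over all probe sets were not counted. The median gap between the control arrays was 0.14 over the 26 probe sets and 0.12 over all, and between the NeuroD2 arrays 0.05 and 0.08. Control replicate 1 was also the array with the low poly-A spikes, and a link between them was not tested. Without control replicate 1 the median difference of the 9 genes was 0.11, and without control replicate 2 it was 0.14. HSPA1B differed by 0.07 without control replicate 1 and 0.25 without control replicate 2, and HSPH1 by -0.11 and 0.14. HSPA6 differed by 1.62 and 1.39.

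**Figure D3:**
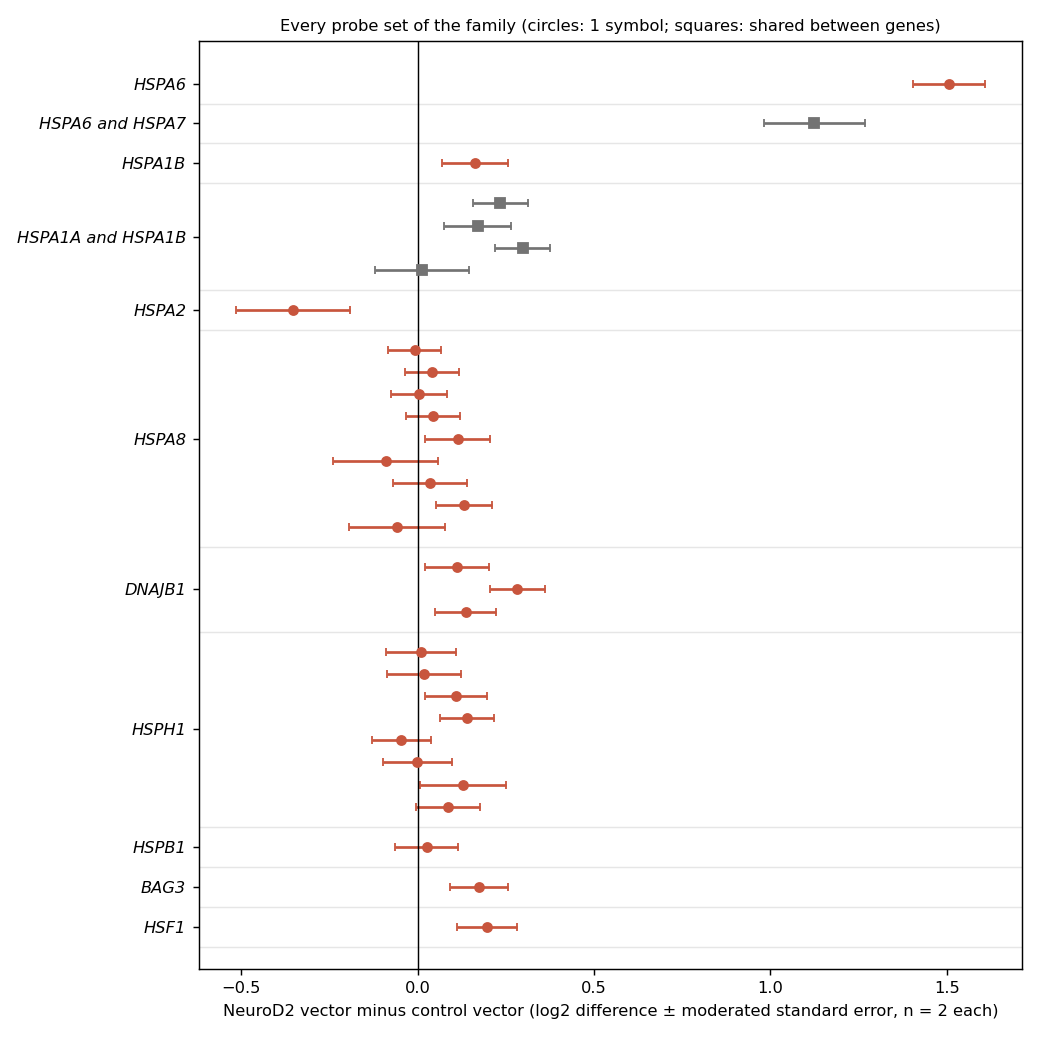
Difference between NeuroD2 vector and control vector (log2, horizontal axis, with the moderated standard error, n = 2 arrays each) for all 26 probe sets with 1 symbol (red circles) and 5 shared probe sets (grey squares), grouped by gene and ordered by brightness within a gene. The HSPA6 probe set and the one shared with HSPA7 stand at 1.51 and 1.12, and the remaining 29 lie between -0.35 and 0.30.

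The genes most like HSPA6 in pattern, by the smallest root mean square deviation of gene-centred log2 values over the 4 arrays, were LIF (0.048), ST3GAL1 (0.049) and FGF2 (0.087). LIF, an interleukin-6 family cytokine, read 10.36 and 10.26 on the control arrays and 11.87 and 11.83 on the NeuroD2 arrays. ST3GAL1, a sialyltransferase, read 8.12 and 8.01 against 9.56 and 9.48. FGF2, the basic fibroblast growth factor, read 9.59 and 9.58 against 11.16 and 11.15. With 4 arrays, such likeness mostly restates a like difference between the vectors.

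The rest of the chaperone network was followed in 8 lists of 96 genes, of which 90 were measured and none is a member. Of these, 2 rose, 2 fell and 86 did not pass limma's test over all genes at an adjusted p of 0.05. That is 4.44% of them, near the 4.77% of all genes, and their median difference was 0.02. Like the members, the lists were chosen with earlier results of these data known, so their calls are read as a description. Of the 90, 16 had an unadjusted p below 0.05 in limma, as did 3946 of all 18132 genes. The counts at this level in single lists below are to be read beside that background. The groups of the called genes did not overlap, so leaving out a single array could not turn their direction. With single arrays left out, ATF3 differed by 0.52 to 0.60, DNAJC2 by 0.37 to 0.44, DNAJC12 by -0.63 to -0.57 and HSPA4L by -0.505 to -0.46.

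Among the other HSP70 and HSP110 genes, 1 of 10 fell, none rose and 9 did not pass (median 0.04, and -0.02 without control replicate 1). HSPA4L, an HSP110 relative that acts as exchange factor, fell from 8.20 ± 0.03 to 7.72 ± 0.02 (SD, n = 2 each), by 0.48 (limma adjusted p = 0.028; 0.063 with the replicate number as a block). All 3 of its probe sets were lower, by 0.36 to 0.48. HSPA12A (0.22, adjusted p = 0.179) and HSPA14 (0.10, adjusted p = 0.508), distant HSP70 relatives, did not pass. HSPA5, HSPA9 and HYOU1, the chaperones of endoplasmic reticulum and mitochondria, are among the 9.

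Of 24 J-domain co-chaperone genes, 1 rose, 1 fell and 22 did not pass (median 0.01). DNAJC12, a co-chaperone of the aromatic amino acid hydroxylases, fell from 7.93 ± 0.04 to 7.33 ± 0.04, by 0.60 (limma adjusted p = 0.017), and its other probe set by 0.53. DNAJC2, which works with HSP70 at the ribosome, rose from 9.88 ± 0.05 to 10.28 ± 0.01, by 0.40 (limma adjusted p = 0.042; 0.079 with the replicate block). DNAJB6, a suppressor of polyglutamine aggregation, differed by 0.37 on its brightest probe set and was higher on all 5, with an adjusted p of 0.052. The 9 nucleotide exchange factor and BAG genes gave no call (median 0.07; 2 with an unadjusted p below 0.05 in limma). The mitochondrial exchange factor gene GRPEL1 differed by 0.33 (adjusted p = 0.074), BAG4 by 0.19 (adjusted p = 0.223) and GRPEL2 by 0.11 (adjusted p = 0.602).

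HSP90 genes and their partners gave no call among 16 (median 0.03; 0 with an unadjusted p below 0.05 in limma). The adaptor between HSP70 and HSP90, STIP1, differed by 0.24 (adjusted p = 0.261), the kinase co-chaperone CDC37 by 0.19 (adjusted p = 0.289) and TOMM34 by -0.15 (adjusted p = 0.415). The 10 chaperonin genes were the most level, with differences from -0.12 to 0.08, a median of 0.00063, no call and 0 with an unadjusted p below 0.05 in limma. HSPE1 and HSPD1 of the mitochondrial chaperonin differed by -0.12 (adjusted p = 0.399) and -0.06 (adjusted p = 0.694), and CCT2 of the cytosolic one by 0.08 (adjusted p = 0.650).

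The 6 other small heat shock protein genes gave no call (median -0.06; 1 with an unadjusted p below 0.05 in limma). Leaving out control replicate 1 turned the median to 0.0033, and leaving out NeuroD2 replicate 2 to 0.0023. CRYAB, the alpha-B crystallin chaperone and itself a heat-induced gene, read 4.82 ± 0.20 and 5.27 ± 0.08, a difference of 0.45 (adjusted p = 0.088), while its other probe set differed by 0.06. HSPB3 differed by -0.18 (adjusted p = 0.523) and HSPB6 by -0.13 (adjusted p = 0.623). Of the other heat shock factors listed, HSF4 and HSF5 were measured and HSF2 was not, beside the binding protein genes HSF2BP and HSBP1. These 4 genes had differences below 0 on their brightest probe sets and none passed (0 with an unadjusted p below 0.05 in limma). HSF2BP differed by -0.25 (adjusted p = 0.256), HSF5 by -0.10 (adjusted p = 0.614) and HSF4 by -0.04 (adjusted p = 0.912). Over every probe set HSF4 was higher on 3 of 5 and HSF5 on 1 of 2, and the median of the list was 0.02 instead of -0.07.

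Of 23 other heat-induced genes, some of which stand in the lists above, 1 rose, 1 fell and 21 did not pass (median 0.02; 9 with an unadjusted p below 0.05 in limma). ATF3, a stress-induced transcription factor that answers many signals besides heat, rose from 7.61 ± 0.0048 to 8.17 ± 0.06, by 0.56 (limma adjusted p = 0.022; 0.0503 with the replicate block). All 7 of its probe sets were higher, by 0.27 to 0.74. The gene that fell is HSPA4L. Of the 9, ATF3, CRYAB, JMJD6 (0.42), DEDD2 (0.38), ZFAND2A (0.36) and SQSTM1 (0.19) were higher. Lower were HSPA4L, SERPINH1 (-0.27) and IER5 (-0.19). The 1.51 of HSPA6 was thus larger than any difference among the 90 network genes, which ran from -0.60 to 0.56, a description that carries no test because HSPA6 was picked with its value known.

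**Figure D4:**
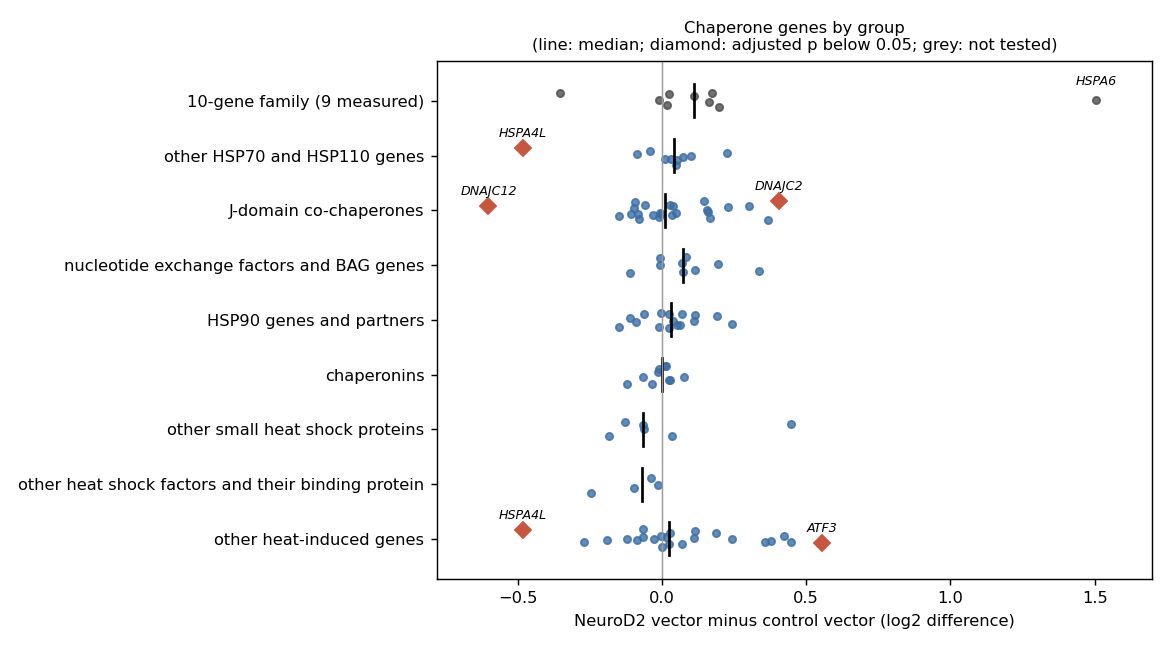
Log2 difference between NeuroD2 vector and control vector (horizontal axis) for the 9 measured members and the genes of 8 other chaperone lists. Members are grey and shown without calls. Listed genes are blue, or red diamonds where the limma adjusted p was below 0.05, and a line marks the median of each list. HSPA6 stands alone at 1.51. Of the listed genes, HSPA4L, DNAJC12, DNAJC2 and ATF3 are past the threshold, HSPA4L standing in 2 lists.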

How the data were processed

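The authors' deposited table holds log2 values of 49395 probe sets on 4 arrays. The log2 scale was read from the values (2.65 to 14.29), as was normalization between arrays, from near-equal medians. How background was corrected and probes were summarised is not given in the sources used here. Genes were named through the platform annotation: 44988 probe sets had 1 symbol, 1832 several and 2473 none, and 102 were controls. Entrez identifiers checked against RefSeq changed 0 symbols. A gene was represented by its brightest probe set with 1 symbol. The fit was limma 3.58.1 in R 4.3.3 (group as the only term, two-sided, 2 residual and 3.84 prior degrees of freedom), with Benjamini-Hochberg adjustment over all 18132 genes or, for single probe sets, over all 44988. Standard errors of member probe sets came from the fit over all 44988 probe sets. The standard error of NEUROD2, the adjusted p-values of listed genes and the prior degrees of freedom came from the fit over genes. Shared probe sets were fitted among all probe sets with a symbol. No permutation test was used, since with 2 arrays a group the exact two-sided p is at least 0.333. The labels name biological replicates but not how cultures were separated, so p-values measure the spread between these arrays. Their number limits the precision.

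The members and the lists were chosen with earlier results of these data known. Named genes were all members, NEUROD2, the 3 largest absolute differences of each list with further called genes, and the 3 genes closest in pattern to the member that differed most. Other heat-induced genes with an unadjusted p below 0.05 in limma were named as well. Promoter windows were searched with Python 3.11.15 and aligned with Biopython; E-box, CCAAT and TATA searches were added after the files were seen. The fit was tested on simulated data. The alternatives were the replicate block, leaving out each array, quantile normalization, median centring, a filter on dim genes, other uses of probe sets, a robust prior and an intensity trend. Listed genes beyond the 90 measured were not analysed here.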

Additional observations from a re-analysis of the deposited data

How the results depend on the processing

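The median difference of the 9 members stayed between 0.106 and 0.163 over 12 alternatives, and moved by less than the spread between replicates in each. HSPA6 ran from 1.39 to 1.62 over the 11 alternatives that kept it, since the filter on genes at or above the median level removed HSPA6 and HSPA2. HSPA8 moved by more than its spread of 0.0082, to 0 with quantile normalization, 0.023 for the mean of its probe sets and 0.035 for the median over single probe sets. HSPH1 (-0.11 to 0.14) and HSPB1 (-0.06 to 0.11) lay on both sides of 0 over the alternatives. So did the list medians of other HSP70 and HSP110 genes (-0.02 to 0.07), J-domain co-chaperones (-0.0053 to 0.07) and chaperonins (-0.03 to 0.0095). The medians of other small heat shock proteins (-0.08 to 0.0033) and of heat shock factors with binding protein genes (-0.14 to 0.02) also did.

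The count of genes past the threshold was 864. It was 335 with the replicate block, 2056 with an intensity trend, 2081 among the genes at or above the median level and 1361 when every probe set was tested. Leaving out single arrays gave 0 to 66 (2140 to 4428 genes at an unadjusted p below 0.05 in limma). The 2 chaperone network genes that rose became 0 with the replicate block, 4 with quantile normalization or centring, 9 with an intensity trend, 8 among brighter genes, 5 with the mean of probe sets, and 0 without any 1 array (9 to 12 at an unadjusted p below 0.05 in limma). The 2 that fell became 1 with the replicate block, 4 when every probe set was tested, and 0 without any 1 array (2 to 7 at an unadjusted p below 0.05 in limma). Testing brighter genes only means fewer tests, and leaving out an array means fewer samples. For no setting was the cause of the changed count tested. Replicate numbers are shared by the groups, but only 2 pairs exist and deviations of same-numbered arrays correlated at 0.08 across genes, so the numbers were not taken to pair the arrays. With the element of 2 units in place of 3, the number of matching members was 6 instead of 2. Without detection calls, dim values such as those of HSPA6 in the control cells have no known distance from background.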
